A study of Mus musculus with 48 samples.

Results

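The mouse superior cervical ganglion (SCG) was compared 4 h after a single intraperitoneal injection of bacterial lipopolysaccharide (LPS) with the same ganglion 4 h after saline. These are 8 of the 48 small RNA libraries of the series, chosen by tissue, time and treatment alone: 4 LPS libraries and 4 saline libraries, each with 2 female and 2 male mice. The LPS mice received 2.5 mg/kg of Escherichia coli LPS in 0.2 mL of saline, and the saline mice received 0.2 mL of saline alone. All mice were Balb/c animals of 2.5 months, and the labels name no genetic change. Both ganglia of a mouse went into 1 library, made from 140 ng of RNA, so each value below is that of 1 animal. The other 40 libraries are SCG at 24 h and 7 d and the trigeminal ganglion (TG) at the same times. The labels do not tie an SCG to a TG of the same animal. The tables hold counts of mature microRNAs (miRNAs) and of fragments cut from transfer RNAs (tRFs).

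The SCG holds the sympathetic neurons that supply the head, with satellite glia, resident macrophages, vessels and a fibrous capsule. LPS is sensed by Toll-like receptor 4, which acts through the transcription factor NF-kB, and miR-155, miR-146a, miR-21a and miR-132 are among the miRNAs known to be induced in that pathway. A miRNA hairpin is cut into a duplex, of which the guide arm is kept in an Argonaute protein while the passenger arm is usually lost soon after. Mature tRNAs are cut by nucleases, among them angiogenin, near the anticodon into a 5′ and a 3′ piece, and elsewhere into shorter fragments.

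The mature sequences of the miRNAs on which the results turn are shown first, from RefSeq on build GRCm38.p6, 5′ to 3′, with the seed (bases 2 to 8, which pair with targets) in capitals. RefSeq matched 437 of the 506 miRNAs tested and 1679 of the 1978 in the table. The first 4 are the opposite arms of 2 hairpins, because arm use is compared below.
miR-155-5p: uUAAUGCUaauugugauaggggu
miR-155-3p: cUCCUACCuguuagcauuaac
miR-21a-5p: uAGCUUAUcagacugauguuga
miR-21a-3p: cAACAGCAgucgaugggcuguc
miR-146a-5p: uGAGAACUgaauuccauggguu
miR-146b-5p: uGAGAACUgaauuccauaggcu
miR-3473b: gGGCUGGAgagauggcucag
miR-3473e: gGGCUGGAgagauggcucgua
miR-27a-5p: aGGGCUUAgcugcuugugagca
miR-190a-5p: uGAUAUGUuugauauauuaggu
The miR-155 arms lie at chr16:84714143-84714165 and chr16:84714182-84714202 on the plus strand, in an exon of the long noncoding RNA gene Mir155hg. The miR-21a arms lie at chr11:86584120-86584141 and chr11:86584082-86584103 on the minus strand, within an exon of Vmp1. The hairpin of miR-190a-5p (chr9:67236700-67236721) is in an intron of Tln2, and that of miR-146b-5p (chr19:46342790-46342811) in an intron of Mfsd13a. The miR-146 pair shares 1 seed, as does the miR-3473 pair.

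The tRF sequences come from the annotation deposited with the counts, which places each fragment in the human tRNA set, so parents are named as given there and no mouse genome position is implied. Fragments of GluTTC, Ala, LysCTT and HisGTG are shown because they differed most by rank or by level.
tRF-31-86V8WPMN1E8Y0, GluTTC: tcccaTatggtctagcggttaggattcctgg
tRF-31-86J8WPMN1E8Y0, GluTTC: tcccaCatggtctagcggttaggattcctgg
tRF-30-RK9P4P9L5HMV, AlaAGC or AlaCGC: gggggtgtagctcagtggtagagcgcgtgc
tRF-36-PSQP4PW3FJI0E7E, LysCTT: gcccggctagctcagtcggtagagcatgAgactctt
tRF-36-PSQP4PW3FJIKE7E, LysCTT: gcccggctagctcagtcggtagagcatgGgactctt
tRF-35-6SXMSL73VL4YMY, HisGTG: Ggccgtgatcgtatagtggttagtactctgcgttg
tRF-31-6SXMSL73VL4YD, HisGTG: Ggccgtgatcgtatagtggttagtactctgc
Capitals mark the G added before the first base of tRNA HisGTG and the single bases by which near-identical fragments differ. Counted from 1 at the 5′ end of the fragment, the GluTTC pair differs by T6C and the LysCTT pair by A29G.

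The 4 LPS libraries held 2550262 to 4762354 miRNA counts and 173469 to 1511191 tRF counts, and the 4 saline libraries held 1982522 to 5592766 and 199308 to 321440. A library counted 742 to 902 miRNAs and 1790 to 2881 tRFs at 1 read or more. The tissue carried the miRNAs of a sympathetic ganglion: the neuron list summed to 72830 to 107300 counts per 1000000 (CPM, scaled by TMM factors here and below) in LPS libraries and 88280 to 107700 in saline libraries. The miR-183 cluster, which marks sensory neurons, summed to 623 to 3861 CPM in LPS libraries and 1193 to 3120 in saline libraries, against a median of 78190 CPM in saline TG, scaled in the fit of all 48 libraries. Several libraries stood apart. Saline replicate 1 held 100900 CPM of muscle miRNAs and 13770 CPM of epithelial and pituitary miRNAs, against 330 to 21430 and 499 to 1031 CPM in the other 3 saline libraries. LPS replicate 1 had the most tRF counts, and its TMM factor for tRFs was 0.398, which raises its scaled tRF values. LPS replicate 3 had the fewest mesenchymal miRNAs of the LPS group. SCG 7 d LPS replicate 2, an SCG library of another time, is also in the joint fit of 24 SCG libraries. The SE of the miR-155-5p log2 fold change at 4 h was 0.37 with it and 0.27 without it, so calls are given both ways.

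No miRNA passed the test in that joint fit, and miR-155-5p and then miR-21a-5p had the smallest p, both higher after LPS. Of 506 miRNAs tested, 0 (0%) had an adjusted p under 0.05 by the quasi-likelihood test of edgeR. At an unadjusted p under 0.05 there were 13 (2.57%), 8 higher and 5 lower. DESeq2 called 1, miR-155-5p, and had 22 at an unadjusted p under 0.05. Without SCG 7 d LPS replicate 2, edgeR tested 514 miRNAs and called 3 (0.584%), which were miR-155-5p with its opposite arm miR-155-3p, and miR-21a-5p. All 3 rose, with 31 (6.03%) at an unadjusted p under 0.05. Of these 3, miR-155-3p passed the filter on low counts only through the LPS libraries at 4 h. The same 3 were called when saline replicate 1 was left out as well. With the 8 libraries fitted alone, miR-155-5p and miR-21a-5p were called (adjusted p = 0.0481 and 0.0053, edgeR). In 6 miRNAs (1.19% of those tested) all 4 LPS libraries lay above every saline library, and in 1 (0.198%) all 4 lay below. Full separation in a given direction is 1 of the 70 assignments of 8 libraries to 2 groups. Shares of this size are therefore expected without any LPS effect, and separation alone singles out no miRNA.

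miR-155-5p, which restrains several negative regulators of inflammatory signalling in macrophages and lymphocytes, stood at 83.9, 79.9, 106 and 41.1 CPM in the 4 LPS libraries, against 27.3, 28.5, 19.9 and 18.3 CPM in the 4 saline libraries. The lowest LPS value was above the highest saline value. Its level was 3.32-fold that of saline, a log2 fold change of 1.73 ± 0.37 (SE), with an adjusted p of 0.0702 in the joint fit and 0.000946 without SCG 7 d LPS replicate 2 (edgeR). When each of the 8 libraries was left out in turn, the log2 fold change was 1.55 to 1.95. By sex it was 1.94 ± 0.54 among males and 1.55 ± 0.53 among females, a male minus female difference of 0.39 ± 0.73 that did not pass the test (adjusted p = 0.996, edgeR). Where a miRNA belongs to one cell type of the ganglion, more RNA per cell and more cells of that type cannot be told apart in these bulk libraries.

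The opposite arm, miR-155-3p, was counted 30, 24, 26 and 9 times in the LPS libraries and 0, 1, 2 and 1 times in the saline libraries. No saline library came near the lowest LPS library. This arm fell below the filter on low counts in the joint fit, and passed it when SCG 7 d LPS replicate 2, LPS replicate 4 or any 1 saline library was left out. It passed only through the LPS libraries at 4 h, since no other SCG library counted it more than 5 times. Without SCG 7 d LPS replicate 2 it rose by a log2 fold change of 4.33 ± 0.58. The adjusted p of 0.000204 (edgeR) is therefore no independent support. This was the largest log2 fold change of the 3 miRNAs called, and at so few counts its size depends on the small number added to counts in the fit.

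The ratio between the arms also lay apart in the groups, though its tests did not pass after adjustment. For every 100 counts of miR-155-5p there were 9.06, 8.51, 8.67 and 7.14 counts of miR-155-3p in the LPS libraries, against 0, 0.662, 3.17 and 1.89 in the saline libraries. The mean was 8.35 ± 0.835 in LPS and 1.43 ± 1.40 in saline (SD, n = 4 each), and the groups did not overlap. At 24 h after LPS the SCG had 0.857 ± 0.466 counts of miR-155-3p per 100 of miR-155-5p (SD, n = 4), although miR-155-5p was then further above saline, with a log2 fold change of 3.05 against saline of that time. TG at 4 h after LPS had 2.11 ± 2.79, ranging from 0 to 5.88. These TG ratios rest on 2, 7, 0 and 0 counts of miR-155-3p over 78, 119, 39 and 51 of miR-155-5p. Two-sided exact permutation tests of SCG at 4 h after LPS against each of these 3 groups gave p = 0.0286, the smallest that 70 assignments allow, and 0.0643 after adjustment over 9 tests of arm ratios. The ratios were computed after the counts had been seen, so these p-values are no independent support.

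**Figure D1:**
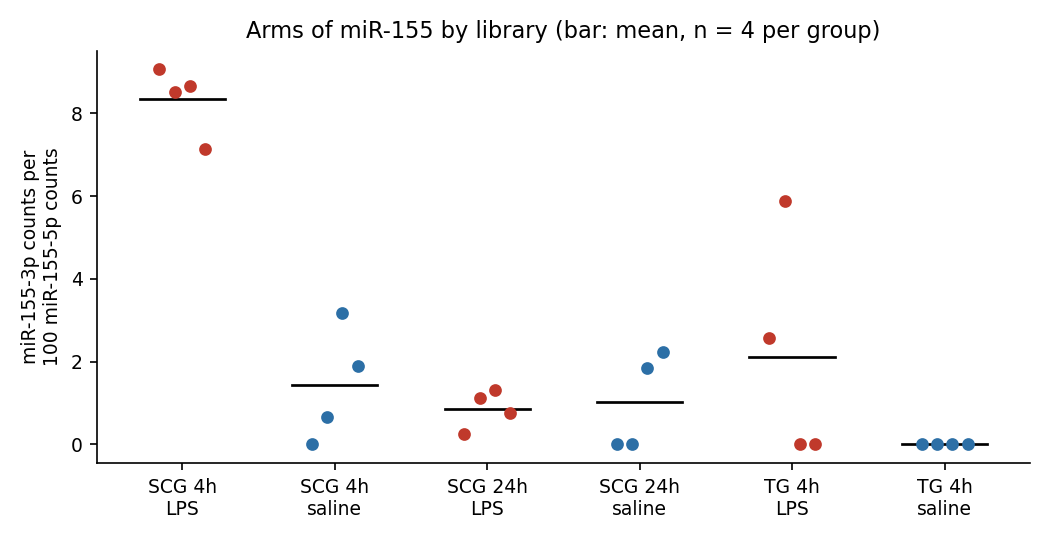
Counts of miR-155-3p for every 100 counts of miR-155-5p (vertical axis) in the 4 libraries of each group, with points for libraries and lines for means. The 4 SCG libraries at 4 h after LPS sit between 7.14 and 9.06, above every library of the other groups shown, the highest of which is a TG library at 5.88.

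miR-21a-5p, an abundant miRNA induced in many inflamed tissues, stood at 13452, 12261, 11649 and 12045 CPM in LPS libraries, against 7127, 7395, 4868 and 5021 CPM in saline libraries. The LPS values were tight and lay well above the saline range. The log2 fold change was 1.02 ± 0.31, with an adjusted p of 0.857 in the joint fit and 0.0279 without SCG 7 d LPS replicate 2 (edgeR). Its opposite arm, miR-21a-3p, was counted 35, 9, 13 and 1 times in LPS libraries and 0, 3, 0 and 0 times in saline libraries. For every 100000 counts of miR-21a-5p that is 2.71 to 65.9 counts in LPS libraries and 0 to 7.67 in saline libraries, and the groups overlap (two-sided exact permutation p = 0.0571, adjusted 0.103).

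The other members above every saline library moved less. miR-27a-5p, the less abundant arm of its hairpin, had 161, 108, 147 and 131 CPM in LPS libraries and 101, 80.1, 103 and 101 CPM in saline libraries, a log2 fold change of 0.50 ± 0.21. The separation rests on a narrow gap between an LPS library at 108 CPM and a saline library at 103 CPM. Its opposite arm miR-27a-3p had a log2 fold change of 0.10, and miR-27b-3p, which shares the seed of that arm, 0.14. miR-5099 and miR-6945-3p, whose roles are little known, had log2 fold changes of 0.33 and 0.76. The miRNA below every saline library was miR-190a-5p, with 10.9, 6.80, 7.43 and 6.86 CPM in LPS libraries, against 17.4, 14.4, 11.7 and 12.1 CPM in saline libraries. None of these 5 passed the test in the joint fit (adjusted p = 0.998 each, edgeR).

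**Figure D2:**
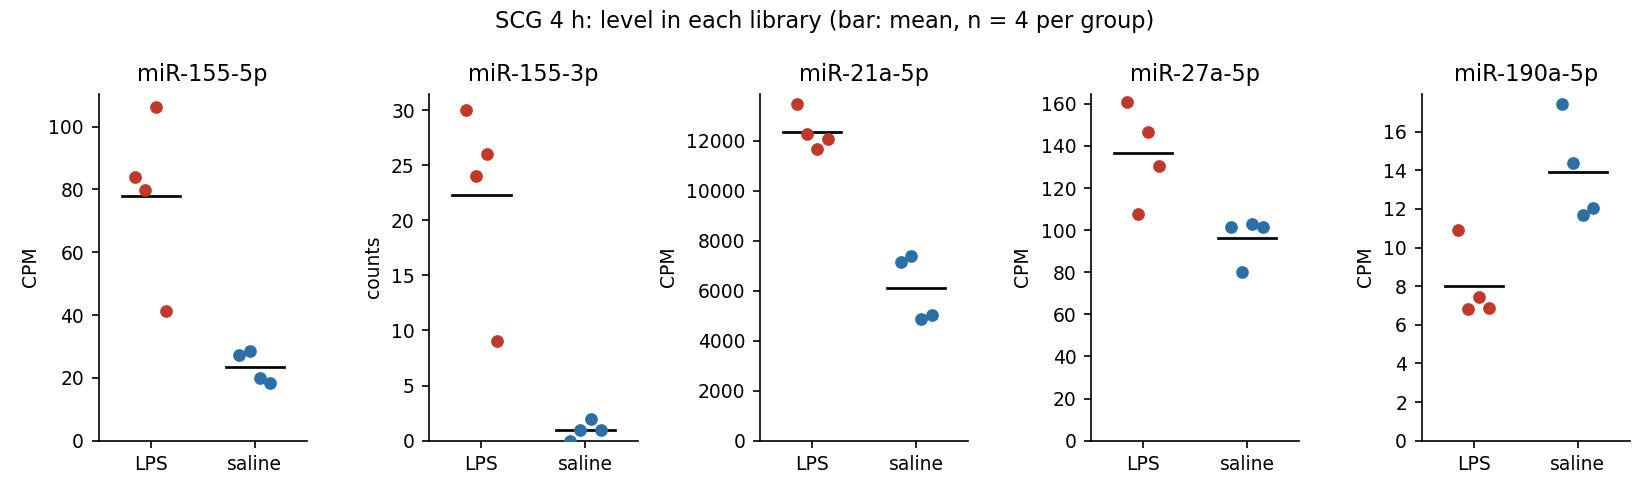
Levels of miR-155-5p, miR-21a-5p, miR-27a-5p and miR-190a-5p in CPM and counts of miR-155-3p in each of the 4 LPS and 4 saline SCG libraries at 4 h, with points for libraries and lines for means. LPS points lie above all saline points for the first 3 and for miR-155-3p, and below them for miR-190a-5p.

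The miRNAs known as targets of NF-kB or of LPS signalling were set out as a list of 18, of which 12 were tested. All 3 miRNAs called without SCG 7 d LPS replicate 2 belong to it, both arms of miR-155 among them. The list was chosen with earlier results of these data known, so this overlap is no independent support. In the joint fit 9 of the 12 were higher in LPS and 3 lower (median log2 fold change 0.26), where all 506 miRNAs had 225 higher, 281 lower and a median of -0.04. Summed over the list, the LPS libraries held 28040, 27670, 26160 and 24610 CPM and the saline libraries 19530, 21550, 17970 and 19950 CPM. That separation is the one of miR-21a-5p, since without it the sums were 14590, 15410, 14510 and 12560 CPM in LPS libraries and 12400, 14150, 13100 and 14930 CPM in saline libraries, which overlap. The miR-146 pair, feedback inhibitors that target the adaptors Traf6 and Irak1, was not separated. miR-146a-5p had 3561, 3431, 1916 and 2347 CPM in LPS libraries and 2605, 2760, 2135 and 2289 CPM in saline libraries, with LPS values on both sides of the saline range. The log2 fold change was 0.21 ± 0.30 for miR-146a-5p and 0.43 ± 0.30 for miR-146b-5p. miR-221-3p, miR-222-3p and miR-187-3p had 0.24, 0.28 and 0.42. miR-132-3p, which is also induced by neuronal activity, had -0.44 ± 0.31, and saline replicate 1 held its highest value of 57.8 CPM.

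Leukocyte miRNAs, which mark blood-derived immune cells, were slightly higher in sum at 4 h, and none passed the test (edgeR). Of 9 tested, 6 were higher and 3 lower (median log2 fold change 0.14). Their sum was 849, 665, 659 and 719 CPM in LPS libraries and 624, 655, 613 and 551 CPM in saline libraries, where the lowest LPS library and the highest saline library were nearly level. miR-223-3p, the marker of neutrophils and monocytes, had 12.2, 9.06, 7.08 and 11.8 CPM in LPS libraries and 13.6, 8.69, 5.37 and 6.21 CPM in saline libraries, which overlap throughout. miR-142a-3p, found in all blood leukocytes, had a log2 fold change of 0.14 ± 0.82, and miR-150-5p, a lymphocyte miRNA, 0.48 ± 0.57. In the same fit the median over this list was 0.81 at 24 h and 1.55 at 7 d on the log2 scale, each against saline of its own time. Without SCG 7 d LPS replicate 2 the medians were 0.10 at 4 h, 0.76 at 24 h and 0.12 at 7 d, so the 7 d value rests on that library.

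Erythroid miRNAs, a measure of blood left in the tissue, varied between animals. Of 7 tested 5 were higher and 2 lower (median log2 fold change 0.56, or 0.06 without LPS replicate 4). miR-451a had 1029, 378, 330 and 1295 CPM in LPS libraries and 317, 697, 465 and 256 CPM in saline libraries, so 2 LPS libraries lay above the saline range and 2 within it. Its log2 fold change was 0.83 ± 0.49 in SCG and -1.04 ± 0.54 in TG of the same time. The SCG minus TG difference of 1.94 ± 0.76 did not pass the test (unadjusted p = 0.0144, adjusted 1.00, edgeR). The part of blood in the other results was not tested.

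Mesenchymal and smooth muscle miRNAs leaned the other way from neuronal ones. All 10 of the mesenchymal list were higher in LPS (median log2 fold change 0.71), and none passed the test (edgeR). These 10 are not independent measurements. miR-199a-3p and miR-199b-3p had the same counts in each LPS and saline library at 4 h, and several members are opposite arms of a hairpin. With 1 library left out the median ran between 0.46 without LPS replicate 1, where 9 of 10 were higher, and 1.04 without LPS replicate 3; it was 0.49 without saline replicate 4, again with 9 of 10 higher. miR-143-3p, of smooth muscle and fibroblasts, had 180848, 95035, 23244 and 139140 CPM in LPS libraries and 53235, 86271, 31920 and 19253 CPM in saline libraries. LPS replicate 3 lay inside the saline range and the other 3 above it. The cartilage miRNA miR-140-5p had 1336, 849, 275 and 1251 CPM in LPS libraries and 432, 674, 307 and 243 CPM in saline libraries, with the same LPS library low. Its log2 fold change was 1.17 ± 0.48, and that of miR-140-3p was 1.24 ± 0.62; these arms are the whole cartilage list (median 1.20). Summed over the mesenchymal list the LPS libraries held 196600, 104000, 26790 and 151700 CPM, and the saline libraries 63700, 94680, 36160 and 22160 CPM.

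The 2 lists of neuronal miRNAs ran mostly below saline by small amounts. Of the 16 neuron miRNAs tested 2 were higher and 14 lower (median log2 fold change -0.17). Without saline replicate 4 it was 6 higher and 10 lower (median -0.03), and without LPS replicate 4 it was 5 and 11 (median -0.06). miR-153-3p and miR-128-3p, both neuron-enriched, had log2 fold changes of -0.52 and -0.29. The large Dlk1-Dio3 cluster, an imprinted cluster much expressed in neurons, had 1 of 49 higher and 48 lower, with a median of -0.21, and no member passed the test (edgeR). When each of the 8 libraries was left out in turn, 40 to 48 of the 49 were lower. The members of the cluster share 1 locus, and both lists hold opposite arms of the same hairpin. These tallies are therefore not counts of independent measurements. In the cluster miR-376a-3p had a log2 fold change of -1.06 and the abundant miR-127-3p -0.28. The neuron list summed to 74790, 86700, 107300 and 72830 CPM in LPS libraries and 92650, 88280, 96050 and 107700 CPM in saline libraries. LPS replicate 3, the library low in mesenchymal miRNAs, was level with the highest saline library, and LPS replicates 1 and 4, with the most mesenchymal miRNAs, were the lowest. The part of the tissue mixture in these differences was not tested.

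The lowest fold changes belonged to muscle and epithelium and rested mostly on saline replicate 1. miR-206-3p, a skeletal muscle miRNA, had 115, 16.99, 1.77 and 11.1 CPM in LPS libraries and 6740, 241, 5.05 and 0.690 CPM in saline libraries, with a log2 fold change of -4.92 ± 1.97 in the joint fit. Saline replicate 1 set most of that difference, and saline replicate 2, at 241 CPM, also lay above every LPS library. miR-203-3p, of keratinised epithelium, had a log2 fold change of -2.04, and miR-200c-3p, an epithelial miRNA, -3.19; without saline replicate 1 the values were 0.36 and 0.26. Over the muscle list, with 4 of 5 lower, the median was -2.35, and -0.56 without that library. miR-122-5p, the liver miRNA, had 32.4, 14.7, 30.1 and 14.0 CPM in LPS libraries and 149 CPM in saline replicate 1, with 23.1 to 26.3 CPM in the other saline libraries.

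**Figure D3:**
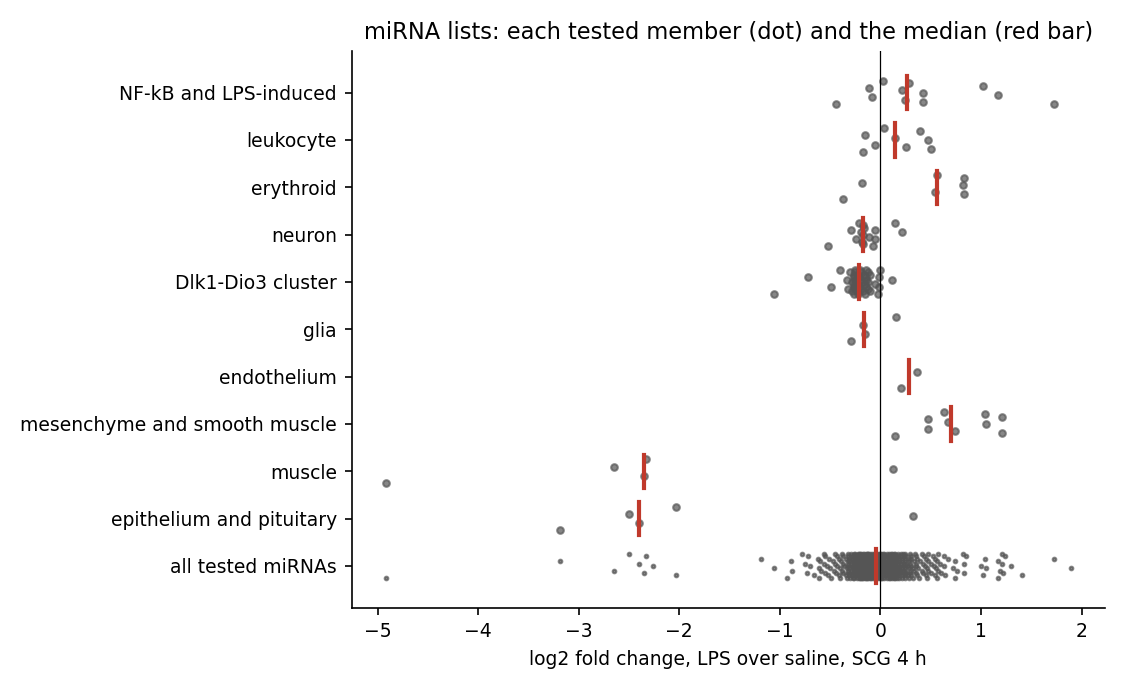
Log2 fold change, LPS over saline in SCG at 4 h, of each tested miRNA in 10 lists and of all 506 miRNAs, with points for miRNAs and lines for medians. The mesenchymal list lies above 0 with a median of 0.71, the Dlk1-Dio3 list mostly below it with a median of -0.21, and the muscle and epithelial lists reach below -2.

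Among the remaining lists, the let-7 family, the most abundant of the 19 lists, had 5 of 10 higher and 5 lower (median log2 fold change 0.01), and it summed to 261100 to 294000 CPM in LPS libraries and 262100 to 293300 CPM in saline libraries. The miR-17-92 cluster and its paralogs, which accompany cell proliferation, had 5 of 13 higher and 8 lower (median -0.05). miRNAs of the Hox clusters, which mark the position of a tissue along the body axis, had 1 of 5 higher and 4 lower (median -0.10). Their sum was 17320 to 18730 CPM in LPS libraries and 17110 to 18720 CPM in saline libraries, against a median of 3462 CPM in saline TG. Glial miRNAs had 1 of 4 higher and 3 lower (median -0.16), p53-linked miRNAs 1 of 4 higher and 3 lower (median -0.11), and the activity-induced miR-132 and miR-212 arms 1 of 3 higher and 2 lower (median -0.09). Both endothelial miRNAs tested were higher (median 0.28), and miR-126a-3p, the more abundant, had a log2 fold change of 0.36 ± 0.27. The hypoxia list had 1 member tested, miR-210-3p, with 0.26 ± 0.24. The miR-183 cluster had 2 of 3 higher (median 0.01) and the liver and gut list 2 of 3 higher (median 0.01). With 1 library left out, the medians of the let-7, miR-17-92, Hox, p53-linked and liver and gut lists stayed between -0.22 and 0.11, on either side of 0. Single libraries set the direction of 3 short lists: the miR-183 cluster had a median of -0.93 without LPS replicate 4 and 0.53 without saline replicate 4, the activity-induced list -0.54 without LPS replicate 3 and 0.36 without saline replicate 1, and the glial list -0.38 without LPS replicate 3 and 0.01 without saline replicate 3. No member of these lists passed the test in the joint fit (edgeR).

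Other miRNAs near the top of the ranking were miR-3473b and miR-3473e. miR-3473b had 51.7, 13.6, 21.6 and 44.7 CPM in LPS libraries and 18.5, 8.88, 9.79 and 13.1 CPM in saline libraries, with 3 LPS libraries above all saline libraries and 1 inside their range. The log2 fold change was 1.41 ± 0.56 for miR-3473b and 1.89 ± 0.87 for miR-3473e (adjusted p = 0.998 each, edgeR). They differ only in their last bases, and the rest is also the start of the mouse B2 repeat. How reads that match both, or the repeat, were counted is not given in the sources used here, so both values are uncertain. miR-224-5p had a log2 fold change of 0.85 ± 0.40 and miR-497a-5p 0.37 ± 0.17. Over the 146 hairpins with both arms tested, the arms had the same sign of log2 fold change in 106, with a median gap of 0.138 between arms.

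Set against 24 h, the responses of miR-155-5p and miR-21a-5p were the smaller at 4 h, though the difference passed no test. The joint fit called 2 miRNAs at 24 h (0.395%), these same ones, and 3 at 7 d (0.593%), which were both with miR-146a-5p. Without SCG 7 d LPS replicate 2 it was 6 at 24 h (1.17%), the additional ones being miR-223-5p, miR-142a-3p, miR-146a-5p and miR-222-3p, and the same 3 at 7 d (0.584%). Within the same fit miR-155-5p had a log2 fold change of 1.73 at 4 h, 3.05 at 24 h and 2.28 at 7 d, each over saline of its own time; without that library the 7 d value was 1.74. The 4 h minus 24 h difference was -1.32 ± 0.51 for miR-155-5p (unadjusted p = 0.0173), -1.11 ± 0.43 for miR-21a-5p (0.0181) and -1.06 ± 0.43 for miR-146a-5p (0.0215), with an adjusted p of 1.00 for each (edgeR). No miRNA passed this difference test, 0% of 506, with 11 at an unadjusted p under 0.05; DESeq2 had 18 at that level. The miR-155-3p arm had the opposite order, with 24 to 30 counts in 3 of 4 LPS libraries at 4 h and at most 5 in any SCG library of the other 2 times. Its 4 h minus 24 h difference, without SCG 7 d LPS replicate 2, was 1.91 ± 1.45 and did not pass the test (adjusted p = 0.989, edgeR).

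Between ganglia the miR-155-5p response was of similar size, and that of miR-21a-5p was the larger in SCG. miR-155-5p had a log2 fold change of 1.76 in SCG and 1.48 ± 0.37 in TG at 4 h in the fit of all 48 libraries, a difference of 0.28 ± 0.52. That of miR-21a-5p was 1.06 in SCG and 0.33 ± 0.24 in TG, a difference of 0.73 ± 0.34 (unadjusted p = 0.0360, adjusted 1.00, edgeR). Without SCG 7 d LPS replicate 2, miR-155-5p was called in TG (adjusted p = 0.0435, edgeR). In that fit miR-155-3p had 4.32 ± 1.44 in TG (adjusted p = 0.509, edgeR), with an SCG minus TG difference of -0.02. Its TG counts were 2, 7, 0 and 0 after LPS and 0 in every saline library. For every 100000 counts of miR-21a-5p, TG had 7.13 to 26.1 of miR-21a-3p after LPS and 0 to 4.26 after saline, which was not tested. No miRNA differed between the ganglia past the threshold, 0% of 577, with 22 at an unadjusted p under 0.05 by edgeR and 23 by DESeq2. Male minus female differences gave 0% of 506, with 10 at an unadjusted p under 0.05 by edgeR and 11 by DESeq2.

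The tRFs were more abundant relative to miRNAs in 3 of 4 LPS libraries, but not beyond the spread between animals. There were 31.7, 12.7, 6.80 and 14.8 tRF counts for every 100 miRNA counts in LPS libraries, against 10.1, 5.75, 8.30 and 7.99 in saline libraries. LPS replicate 3 lay inside the saline range. The mean log2 ratio was 0.85 higher in LPS (two-sided exact permutation p = 0.114), and 1.21 without LPS replicate 3 or 0.47 without LPS replicate 1.

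No tRF passed the test. Of 544 tested, 0 (0%) had an adjusted p under 0.05 by edgeR, and 39 (7.17%) had an unadjusted p under 0.05, of which 25 were higher and 14 lower. DESeq2 also called 0, with 57 at that level, and without SCG 7 d LPS replicate 2 edgeR called 0 of 589 (0%) with 45 (7.64%). In 6 tRFs (1.1%) every LPS library was above every saline library, and in 7 (1.29%) every LPS library was below. With 1 of 70 assignments giving such a separation in a given direction, these shares are no more than expected without any LPS effect. Lack of overlap in a single tRF below is therefore descriptive only.

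By position on the tRNA, fragments from the 5′ end leaned up and those from the 3′ end leaned down. Of the 5'-tRFs 95 were higher and 39 lower (median log2 fold change 0.47), and of the 5'-half type, which ends in the anticodon loop, 64 were higher and 31 lower (median 0.33). Of the 3'-tRFs 17 were higher and 98 lower (median -0.31), and of the 3'-half type 2 higher and 15 lower (median -0.35). Internal fragments (i-tRFs) had 75 higher and 108 lower (median -0.16), and all 544 had 253 higher and 291 lower (median -0.05). Single libraries carried part of these leans. The median of the 5'-half type was 0.08 without LPS replicate 1 (55 higher, 45 lower) and 0.09 without saline replicate 2 (56 and 44), and that of 5'-tRFs was 0.12 without LPS replicate 4 (72 and 67). That of 3'-tRFs stayed between -0.51 and -0.17 and that of the 3'-half type between -0.63 and -0.20 with 1 library left out. These directions are relative to the other tRFs: scaled to the miRNA counts instead, the median of all tRFs moved to 0.30, those of the 3'-half type and of 3'-tRFs turned to 0.13 and 0.01, and that of 5'-tRFs was 0.89. The 3'-half type made up 0.0537, 0.0664, 0.141 and 0.122% of tRF counts in LPS libraries, against 0.147, 0.158, 0.186 and 0.231% in saline libraries. No LPS library reached the lowest saline share, by a small margin (two-sided exact permutation p = 0.0286, the smallest possible, and 0.143 adjusted over the 5 types). The share of 5'-tRFs was 40.7 ± 14.98% in LPS and 31.2 ± 7.92% in saline (SD, n = 4 each, two-sided exact permutation p = 0.314), and that of the 5'-half type was 55.1 ± 13.2% and 62.1 ± 8.45% (p = 0.429, the same exact test).

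**Figure D4:**
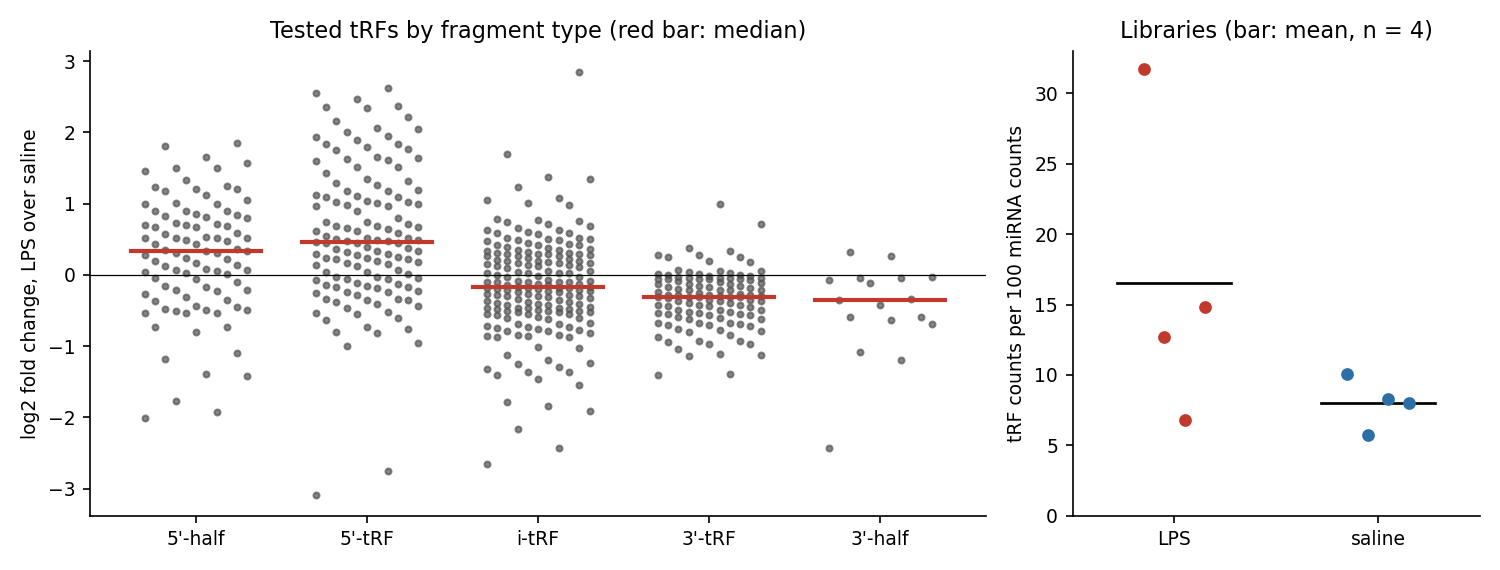
Left, log2 fold change of each tested tRF, LPS over saline in SCG at 4 h, by fragment type, with points for tRFs and lines for medians; right, tRF counts for every 100 miRNA counts in each of the 4 LPS and 4 saline libraries. Medians run from 0.47 for 5'-tRFs to -0.35 for the 3'-half type, and LPS replicate 1 stands at 31.7 tRF counts for every 100 miRNA counts.

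Among single fragments the smallest p belonged to the Ala fragment tRF-30-RK9P4P9L5HMV. It had 150, 104, 62.0 and 115 CPM in LPS libraries, against 10.2, 32.5, 52.2 and 34.8 CPM in saline libraries, without overlap. Its log2 fold change was 1.79 ± 0.49 (adjusted p = 0.578, edgeR).

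Fragments from the 5′ end of tRNA GluTTC made up a group near the top. Of 32 that start at the first base, 23 were higher and 9 lower, with a median of 0.76 on the log2 scale, and 9 had an unadjusted p under 0.05, all higher, against 25 higher among 544. With 1 library left out the median was 0.46 to 0.97. tRF-31-86V8WPMN1E8Y0 had 4890, 2131, 728 and 7433 CPM in LPS libraries and 515, 596, 880 and 475 CPM in saline libraries. LPS replicate 3, the library of fewest tRF counts, lay inside the saline range. Its log2 fold change was 2.62 ± 0.94, and that of tRF-31-86J8WPMN1E8Y0, which differs by T6C, was 2.37 ± 0.92. The longer tRF-33-86J8WPMN1E8Y0E had 4977, 2212, 2268 and 2689 CPM in LPS libraries and 2159, 1346, 1630 and 1881 CPM in saline libraries, a smaller difference (0.80 ± 0.38) without overlap. These fragments overlap one another, so they are not independent measurements. As a share of all tRF counts, GluTTC fragments held 2.369, 1.738, 2.229 and 5.165% in LPS libraries. In saline libraries they held 2.486, 3.026, 1.616 and 1.977%, so only LPS replicate 4 lay above the saline range. The CPM values also carry the TMM factors, which were 0.398 and 0.663 in LPS replicates 1 and 2.

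Fragments of tRNA GluCTC held 49.5 to 75.7% of tRF counts in LPS libraries and 61.5 to 71.2% in saline libraries. The LPS range spanned that of saline on both sides.

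HisGTG fragments with the added G held most of the counts of that tRNA. Of 19 HisGTG 5'-tRFs 18 were higher and 1 lower (median log2 fold change 0.64, or 0.21 without saline replicate 4, with 15 higher and 5 lower). tRF-35-6SXMSL73VL4YMY, a 5'-half, had a log2 fold change of 0.85 ± 0.48 and the shorter tRF-31-6SXMSL73VL4YD 2.05 ± 1.12. In the shorter fragment the LPS values were 54391, 12859, 4727 and 90525 CPM, and the saline values 12998, 8090, 12658 and 4215 CPM. LPS replicates 1 and 4 carried the difference in CPM, and the value of replicate 1 is raised by its TMM factor of 0.398. As a share of tRF counts, all HisGTG fragments held 15.84, 11.61, 11.05 and 29.15% in LPS libraries. In saline libraries they held 12.07, 11.06, 16.71 and 11.77%, so only LPS replicate 4 lay above the saline range.

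The 3 fragments of other tRNAs above every saline library were tRF-32-6978WPRLXN48Q of ProTGG (log2 fold change 1.20 ± 0.53), tRF-19-PS5P4PJ4 of LysTTT (1.02 ± 0.46) and tRF-40-3JVIJMRPFQ5DWXH9 of LysCTT (1.37 ± 0.76). The ProTGG fragment had 416, 395, 356 and 266 CPM in LPS libraries and 260, 146, 127 and 91.4 CPM in saline libraries. Its lowest LPS library and its highest saline library were nearly level. Among lower fragments, tRF-36-PSQP4PW3FJI0E7E of LysCTT had 46.8, 16.8, 30.999 and 127 CPM in LPS libraries and 1807, 84.0, 41.0 and 78.4 CPM in saline libraries, a log2 fold change of -3.08 ± 0.96 set mostly by saline replicate 1. The fragment that differs from it by A29G, tRF-36-PSQP4PW3FJIKE7E, had -2.76 ± 0.99, and 0.57 without that library. tRF-35-PSQP4PW3FJI0E7 of LysCTT and tRF-32-PNR8YO9LON4V3 of GlyCCC turned likewise, with -2.01 and -1.93 in the joint fit and 0.23 and 0.19 without it. The 3'-half of LysTTT, tRF-42-YEN0RR1380877S6V2, had 0, 3.35, 0 and 9.58 CPM in LPS libraries and 5.10, 16.3, 37.3 and 21.8 CPM in saline libraries, which overlap by 1 LPS library.

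Several smaller tRF families also leaned one way. All 6 tested 5'-tRFs of LeuAAG or LeuTAG were higher (median log2 fold change 1.62, or 0.23 with 4 higher and 2 lower without LPS replicate 1), while all 6 internal fragments of the same parents were lower (median -0.76). One of the internal fragments, tRF-17-W9RKM8N, had 21.7, 30.2, 36.2 and 16.8 CPM in LPS libraries, against 56.1, 67.7, 63.4 and 47.9 CPM in saline libraries. Every LPS value was below every saline value, and its log2 fold change was -1.20 ± 0.56 (adjusted p = 0.651, edgeR). Of the AspGTC fragments of the 5'-half type, 6 of 7 were higher (median 0.68), and 4 of 15 internal AspGTC fragments were higher (median -0.60, or -0.11 with 8 higher and 9 lower without saline replicate 1). The AspGTC fragment of that type with the smallest p, 34 bases long, had 344, 168, 51.7 and 240 CPM in LPS libraries and 30.6, 51.5, 85.8 and 95.8 CPM in saline libraries, with LPS replicate 3 inside the saline range. On the log2 scale it was 1.58 ± 0.61 above saline, and in the fit of all 48 libraries the fold change was 1.80 in SCG and -1.35 ± 0.77 in TG, a difference of 3.16 ± 1.01 that did not pass the test (adjusted p = 0.453, edgeR). The Ala fragment tRF-31-R29P4P9L5HLVE had a log2 fold change of 1.85 ± 0.73, the GlyCCC fragment tRF-27-Q1Q89P9L842 2.00 ± 0.74, and the ValTAC fragment tRF-32-R9JP9PMNH5SY3 1.82 ± 0.71 (adjusted p = 0.578 each, edgeR).

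Where the 5′ fragments end was measured as the share of those of 25 to 40 bases that are 32 bases or shorter. For GluCTC that share was 59.6, 45.3, 30.5 and 59.2% in LPS libraries, against 31.8, 26.9, 43.0 and 62.1% in saline libraries. The groups overlapped over nearly their whole range (two-sided exact permutation p = 0.514). HisGTG had 34.3 ± 16.1% in LPS and 24.9 ± 7.91% in saline (SD, n = 4 each, exact p = 0.371), and LysCTT had 58.7 ± 14.8% in LPS and 45.5 ± 15.7% in saline (SD, n = 4 each, exact p = 0.257). Between ganglia the ends differed more than between treatments. After LPS the TG had 11.4 ± 5.72% of GluCTC fragments at 32 bases or shorter, with no library above 19.4%, below every SCG library (two-sided exact permutation p = 0.0286, the smallest possible). The same exact test gave the same p for HisGTG and LysCTT, in LPS and in saline libraries, and p = 0.171 for GluTTC.

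**Figure D5:**
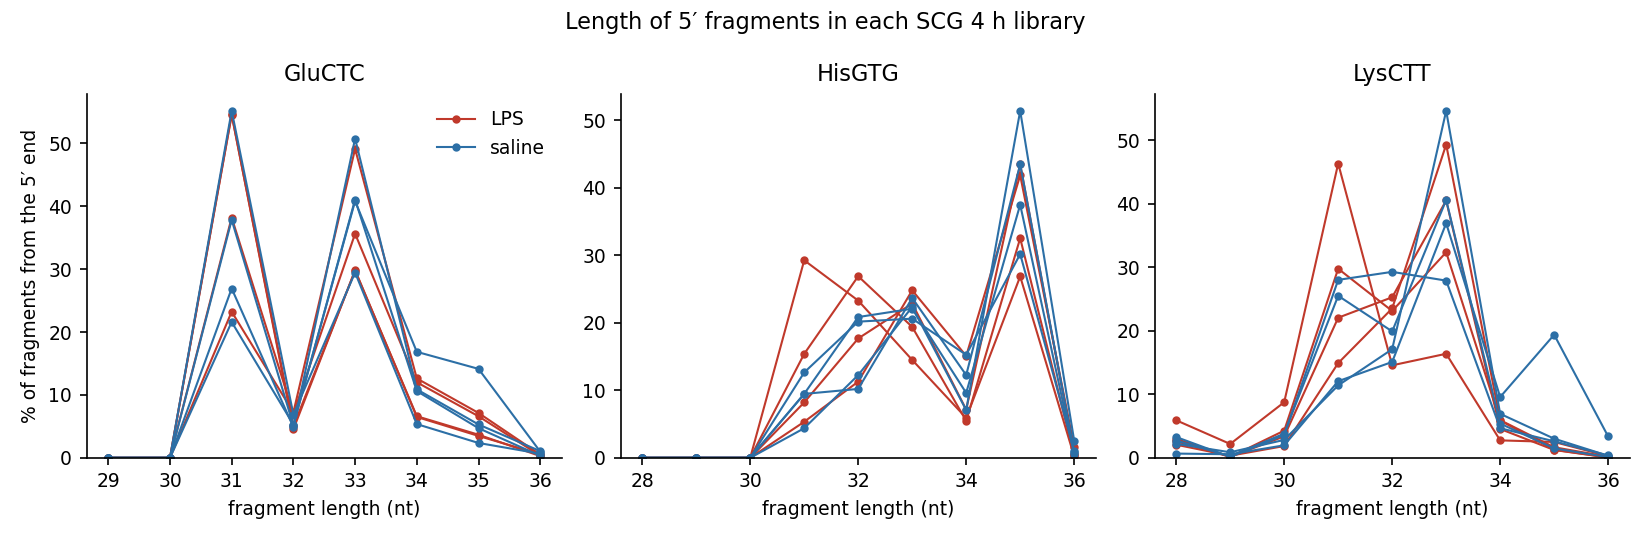
Share of the 5′ fragments of GluCTC, HisGTG and LysCTT (percent, vertical axis) at each length in bases (horizontal axis), with 1 line for each LPS and saline SCG library at 4 h. The GluCTC share at 32 bases or shorter runs from 30.5 to 59.6% in LPS libraries and from 26.9 to 62.1% in saline libraries.

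No tRF passed a test of difference. The 4 h minus 24 h test gave 0% of 544, with 41 at an unadjusted p under 0.05 by edgeR and 50 by DESeq2. The SCG minus TG test gave 0% of 729, with 29 by edgeR and 29 by DESeq2, and the male minus female test 0% of 544, with 58 by edgeR and 56 by DESeq2. For tRF-31-86V8WPMN1E8Y0 the log2 fold change was 2.62 at 4 h and -0.80 ± 0.90 at 24 h, a difference of 3.43 ± 1.29 (unadjusted p = 0.0149, adjusted 0.617, edgeR). The SCG saline libraries at 24 h ran from 192 to 3955 CPM (mean 1209, SD 1832, n = 4). The LPS libraries at 24 h, from 324 to 1131 CPM, lay within that range, so the negative 24 h value depends on high saline values. The smallest p between ganglia belonged to tRF-36-PSQP4PW3FJIKE7E, with an SCG minus TG difference of -3.66 ± 1.01 (adjusted p = 0.226, edgeR), which rests on saline replicate 1 as above.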

How the data were processed

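Small RNA libraries of 48 mouse ganglia were compared, with 8 of them, 4 LPS and 4 saline SCG libraries at 4 h, at the centre. The deposited values are whole-number counts per miRNA and per tRF, not normalised by the authors. FastQC 0.11.9 and build GRCm39 are named per the submitters' processing notes, and flexbar, an adapter trimmer, appears per the file headers of the tRF counts. No source used here gives the aligner, the counter or the treatment of reads with several matches. A read that matches several tRNA copies or repeat miRNAs may thus have been split or counted more than once. The tRF annotation uses human tRNA names. Every column of samples was mapped to a label.

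From the counts, edgeR 4.0.16 in R 4.3.3 gave TMM factors, CPM values and quasi-likelihood F-tests. The fit held 24 SCG libraries in 6 groups with an additive sex term, after a filter with a minimum count of 10. P-values were adjusted by Benjamini-Hochberg over all features tested, and a feature was called at an adjusted p under 0.05. SCG was set against TG in a fit of 48 libraries, and male against female within the joint design. Shares and ratios were compared by two-sided exact permutation tests over samples, with 70 assignments and a smallest p of 0.0286. DESeq2 1.42.0, other scalings, no filter, no sex term, fewer libraries and each library left out were the alternatives. The code was tested on simulated data. A library is 1 animal by the labels, and p-values cover the spread between animals. Depth was 1982522 to 5592766 miRNA counts and 173469 to 1511191 tRF counts per library.

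The members and the 19 lists, of 187 names, were chosen with earlier results of these data known. The text may name miRNAs and tRFs called with or without SCG 7 d LPS replicate 2, the 10 of smallest p in each direction of each table, opposite arms of called miRNAs, list members, the 10 most abundant of each kind and tRF families of 5 or more. Features whose groups do not overlap, GluTTC starts and the 5′ end lengths were chosen after their values were seen. Single fragments of tRNA GluCTC are not reported here.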

Additional observations from a re-analysis of the deposited data

Results flagged for a closer look

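In 28 of 246 groups of values, the highest or lowest of 4 libraries was far from the other 3. Many of these features were picked by their values in these same libraries and some fragments overlap. The 28 can therefore not be set against a rate expected by chance. Of the 28, 14 are saline replicate 1. That library held 6740 CPM of miR-206-3p, 1586 CPM of miR-133a-3p, 10553 CPM of miR-203-3p, 684 CPM of miR-200c-3p and 13770 CPM over the epithelial and pituitary list. It also held 149 CPM of miR-122-5p and 57.8 CPM of miR-132-3p, and its 0.545 CPM of miR-6945-3p was the lowest. Among its tRFs were 1807 CPM of tRF-36-PSQP4PW3FJI0E7E, 633 CPM of tRF-36-PSQP4PW3FJIKE7E, 12125 CPM of tRF-35-PSQP4PW3FJI0E7 and 449 CPM of tRF-32-PNR8YO9LON4V3. Its shares of AlaCGC/AlaTGC (0.438% of tRF counts) and TyrGTA (0.237%) were the lowest of the saline group. Saline replicate 2 had the lowest miR-27a-5p (80.1 CPM) and tRF-32-86J8WPMN1E8YN (309 CPM) and the highest miR-224-5p (252 CPM). Saline replicate 3 had the highest tRF-33-6SXMSL73VL4YDN (29505 CPM) and saline replicate 4 the highest tRF-22-WD8SS46D2 (87.1 CPM).

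In the LPS group, replicate 1 had the highest miR-206-3p (115 CPM), miR-1a-3p (12238 CPM) and miR-190a-5p (10.9 CPM), and the highest sum of the muscle list (12490 CPM). Replicate 3 had the lowest miR-210-3p (17.7 CPM) and the highest miR-127-3p (10944 CPM), the lowest sum of the hypoxia list (18.05 CPM) and the highest of the Hox list (18730 CPM). Replicate 4 had the lowest share of GluCTC among tRF counts, at 49.5%.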

How the results depend on the processing

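No paired analysis was possible because the labels tie no LPS animal to a saline animal. No miRNA was called in the joint fit. There were 3 without SCG 7 d LPS replicate 2, and 3 without saline replicate 1 as well (an alternative chosen after seeing the data). The count was 2 with the 8 libraries alone, 1 with DESeq2 and 24 with no filter on low counts. Of these 24, 5 of the muscle list and 7 of the epithelial and pituitary list were lower after LPS, lists that were high in saline replicate 1. Leaving out each of the 8 libraries gave 0 to 2. Among the named miRNAs and tRFs the count of calls was 0, against 3, 3, 2, 1 and 14 in the same order, and 0 to 2 with a library left out. With no filter the 4 h minus 24 h, male minus female and SCG minus TG tests of miRNAs called 11, 8 and 18, and the male minus female test of tRFs called 5, where the joint fits called 0. With a library left out, that tRF test and the SCG minus TG test of tRFs each called 0 to 2, most without saline replicate 2 and saline replicate 3 in turn. The log2 difference in tRF counts per miRNA count was 0.465 to 1.21 with a library left out, and its exact permutation p reached 0.0286 without LPS replicate 3. Directions turned for 5 named features without saline replicate 1, whose log2 fold changes ran from -2.47 to 0.357 for miR-203-3p, -3.73 to 0.265 for miR-200c-3p, -3.39 to 0.570 for tRF-36-PSQP4PW3FJIKE7E, -2.55 to 0.228 for tRF-35-PSQP4PW3FJI0E7 and -2.33 to 0.186 for tRF-32-PNR8YO9LON4V3 with a library left out; with SCG 7 d LPS replicate 2 left out too, they were 0.397, 0.351, 0.558, 0.223 and 0.200. The library's muscle and epithelial counts show what it carries for the miRNAs; for the tRFs the cause was not tested. Of 650 other values of named features, 625 kept direction and side of the threshold, 20 crossed it and 5 reversed. Depth limits the arms of few counts: 9 counts of miR-155-3p in LPS replicate 4 rest on 126 of miR-155-5p. In tRFs, 75.3 to 87.1% of counts lay in 10 fragments, which leaves few for the rest.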
